A study of Cervus nippon with 40 samples.

Results

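Brain and adrenal of Sika Deer were compared with each other through their small RNA libraries, and both were set against the other 8 organs of the series. The members are the 4 brain and 4 adrenal libraries, taken by their organ label from 40 libraries, and they were paired by stage, which is juvenile (1 year), adolescence (3 years), adult (5 years) or aged (10 years). Over miRNAs with a known bovine name, 250 of the 336 names with reads in the series had reads in these 8 libraries, 216 of them in brain, 229 in adrenal and 195 in both. All animals were untreated male deer of the Shuangyang breed, 12 in all with 3 per stage, and every library pools the RNA of the 3 deer of its stage. An organ thus has a single library per stage, the spread between animals was not measured, and the 4 libraries of an organ differ in age as well as in animals. The other 8 organs are antler, heart, kidney, liver, lung, skeletal muscle, spleen and testes, with 4 libraries each. Neither the labels nor the methods say which brain region was taken, or whether adrenal cortex and medulla were both included.

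A miRNA is a short RNA that guides silencing proteins to messenger RNAs with matching sites, and many miRNAs mark the cell types that transcribe them. The adrenal gland joins a steroid-producing cortex to a medulla of chromaffin cells, which derive from the neural crest, release catecholamines and share much of their secretory machinery with neurons. Several miRNAs are known from both kinds of tissue, among them miR-7, which is abundant in neurons and in hormone-secreting cells, and the large group of miRNAs transcribed from the maternal copy of the imprinted DLK1-DIO3 region. In contrast miR-124 is a classic neuronal miRNA, and miR-199a and miR-214 come from a host transcript of mesenchymal cells.

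The 8 libraries held 368429 to 1159823 miRNA reads, so that 1 read stood for 0.862 to 2.71 reads per 1000000 miRNA reads (RPM), and all 40 libraries held 41866 to 7759033. Differences are given on the log2(RPM + 1) scale after TMM scaling, from a limma fit of organ and stage over all 40 libraries. The test covered the 126 miRNAs that reached 10 reads in 4 or more of the libraries, and 127 of the 250 names fell below that minimum. RPM values and their ranges are given before TMM scaling. On that scale the ranges of brain and adrenal did not overlap for 26.2% of the 126. A miRNA was called at a Benjamini-Hochberg adjusted p below 0.01 and a difference of more than 1 on the log2 scale, and every adjusted p below is of this kind from limma unless another tool is named. The marker check put miR-124a, the neuronal marker, at 2446 to 57640 RPM in brain and at 8.36 to 72.5 RPM in adrenal. The adolescence brain was the brain library least like the others, by a small margin. Across the 126 miRNAs its mean Pearson correlation with the others was 0.854, against 0.887 to 0.942 for them. Its single correlations ran from 0.782 to 0.902. Its TMM factor of 0.558 was the lowest of the 8. The values that it moved most are also given without it, a choice made after the data were seen.

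Brain and adrenal shared a set of 12 miRNAs above the other 8 organs. In brain 23 miRNAs were higher than in the mean of the other 8 organs, which is 18.3% of those tested, and in adrenal 18 were, or 14.3%. The 12 that were higher in both are 9.52% of the 126 tested, 52.2% of the brain set and 66.7% of the adrenal set. Both comparisons use the same 32 libraries of the other organs, so their values are placed side by side and no test of the overlap is given. In tissue libraries such as these, more cells of a type and more RNA per cell cannot be told apart. Of the 12, 7 are on the list of DLK1-DIO3 names used here (miR-134, miR-409a, miR-409b, miR-412, miR-431, miR-433 and miR-541). The other 5, which that list does not hold, are miR-7, miR-95, miR-135a, miR-1343-3p and miR-3957. Membership of the cluster was taken from that list alone. All 12 were also called higher in both organs on total miRNA reads, with edgeR and with DESeq2 on the recovered reads. Of the 12, miR-134, miR-412 and miR-541 met the minimum of reads only through brain and adrenal, so they had to differ from the other organs and their calls are no support. The same holds for 5 of the 23 in brain, with miR-760-3p and miR-2366 added, and for 3 of the 18 in adrenal, which leaves 9 shared miRNAs.

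**Figure D1:**
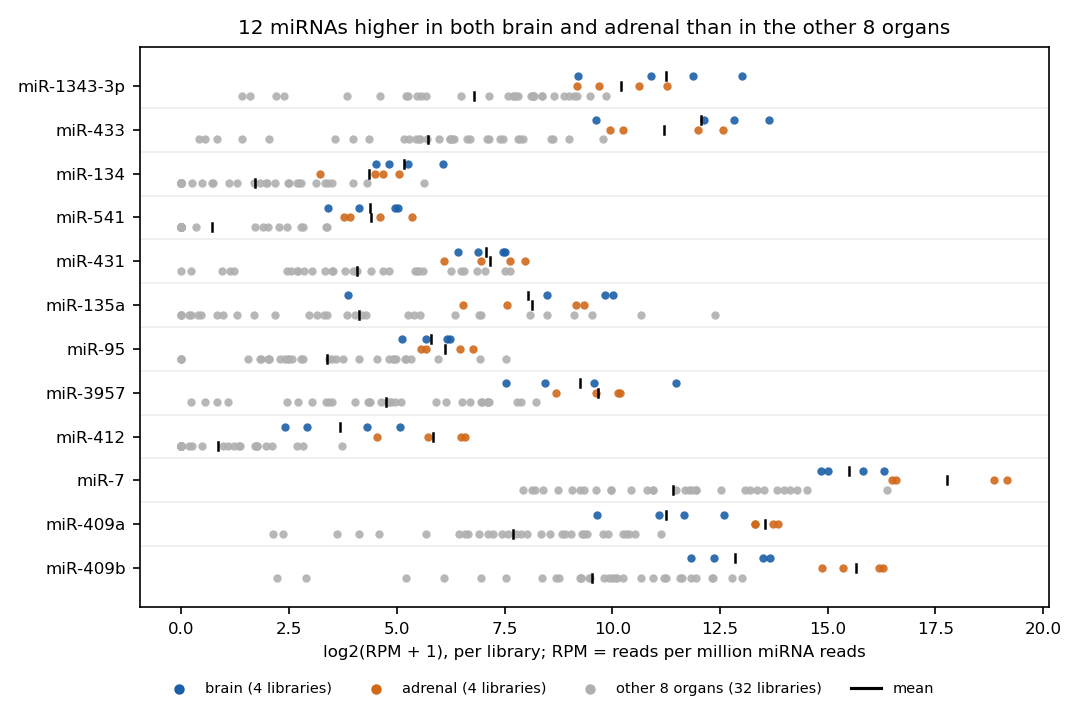
Levels of the 12 miRNAs called higher in both brain and adrenal than in the other 8 organs, with log2(RPM + 1) on the x axis and 1 row per miRNA. Each point is 1 library (blue brain, orange adrenal, grey the 32 libraries of the other organs) and black ticks are means. For miR-541 all 8 points lie to the right of the grey points, although 0 reads in the adolescence, adult and aged testes allow 44.6, 30.9 and 71.7 RPM, while for miR-135a several grey points lie as far right as the brain and adrenal points.

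The most abundant of them was miR-7, a miRNA of neurons and secretory cells that is tuned in brain by a circular RNA. It reached 474297 RPM in the juvenile adrenal, 590536 in the adolescence adrenal, 93085 in the adult and 98970 in the aged adrenal. In brain it stood at 81127, 33260, 58015 and 29532 RPM in the same order of stages. So adrenal was above brain at every stage, also after TMM scaling. The unscaled ranges did not overlap, as for 26.2% of the tested miRNAs in either direction. After TMM scaling they did, since the juvenile brain (factor 0.913) passed the adult and aged adrenal (1.71 and 1.76). The juvenile and adolescence adrenal were far above the later pair. In those first 2 adrenal libraries miR-7 made up 47.4% and 59.1% of all miRNA reads, against 9.31% and 9.9% in the adult and aged. Against the other 8 organs miR-7 was higher by 3.93 ± 0.47 (log2, SE) in brain and by 5.59 ± 0.47 in adrenal, a 15.3-fold and a 48.1-fold difference (adjusted p = 1.43e-08 and 2.35e-11). The highest library elsewhere was the adolescence testes at 85407 RPM, which is above all 4 brain libraries. Between brain and adrenal the difference of -1.66 ± 0.63 missed the limit (adjusted p = 0.0371, 95% interval -2.93 to -0.38).

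The DLK1-DIO3 miRNAs formed the largest group. The region encodes DLK1 and RTL1 on the paternal chromosome and noncoding RNAs, with a long array of miRNAs, on the maternal one. Its list held 58 names, 28 of which had reads in brain or adrenal and 8 of which could be tested. Against the other 8 organs 7 of the 8 were higher in brain and 7 of the 8 in adrenal, where 18.3% and 14.3% of all tested were, and without miR-134, miR-412 and miR-541 they were 4 of 5 in each. Over the 8 the list had a median log2 difference of 3.30 in brain and 3.74 in adrenal, where the medians over all 126 miRNAs were -0.08 and 0.26. Summed over all listed members the cluster took 0.789% to 2.66% of the miRNA reads in brain, 4.13% to 9.58% in adrenal and at most 1.12% in the other 32 libraries, where the highest was the juvenile kidney. The other 20 listed names were scarce. Their highest count was 26 reads, for miR-544a in the adolescence adrenal, and no other of them passed 8 reads in a brain or adrenal library.

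In adrenal miR-409b and miR-409a were the most abundant names of the cluster. In adrenal miR-409b stood at 29907, 41866, 79696 and 74422 RPM from juvenile to aged. In brain it stood at 3658, 12874, 11675 and 5278 RPM. On unscaled RPM all adrenal libraries were above all brain libraries, and adrenal was above each of the other 9 organs at all 4 stages. After TMM scaling the brain and adrenal ranges overlapped, since the adolescence brain (factor 0.558) passed the juvenile adrenal (1.67). Within each stage pair adrenal stayed above brain. Its log2 difference from the other 8 organs was 3.17 ± 0.58 in brain and 5.38 ± 0.58 in adrenal. For miR-409a the adrenal libraries held 10204, 13584, 10119 and 14806 RPM and the brain libraries 3259, 806, 6239 and 2161. Here the unscaled ranges did not overlap either, and the differences from the other organs were 3.43 ± 0.39 and 5.11 ± 0.39. Brain against adrenal gave -2.21 ± 0.78 for miR-409b (adjusted p = 0.0256) and -1.67 ± 0.52 for miR-409a (adjusted p = 0.0124), neither past the limit. Without the adolescence brain the difference of miR-409b was -3.0 and passed it (adjusted p = 0.00291). It also passed without the juvenile adrenal, and miR-409a passed without the adult brain or without the juvenile adrenal. With no stage block both stayed short of the limit (adjusted p = 0.0644 for miR-409b and 0.0956 for miR-409a).

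By contrast miR-433, which lies antisense to RTL1, was higher in brain at some stages and higher in adrenal at others on unscaled RPM. It measured 786, 12686, 7308 and 4450 RPM in brain from juvenile to aged and 994, 1225, 4093 and 6084 RPM in adrenal. The ranges overlapped, since adrenal was above brain in the juvenile and aged pairs on this scale. The highest of the other 32 libraries reached 877 RPM, and at each stage both organs were above all 8 others. Its difference from the other 8 organs was 6.33 ± 0.75 in brain, the largest of the 12, and 4.85 ± 0.75 in adrenal. Between brain and adrenal the difference was 1.48 ± 1.0 (95% interval -0.56 to 3.52, adjusted p = 0.28), and 0.31 without the adolescence brain.

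Its neighbour miR-431, also antisense to RTL1, held 84.5 to 181 RPM in brain and 67 to 251 in adrenal. The differences from the other organs were 3.09 and 2.56, and the juvenile antler reached 196 RPM, above all 4 brain libraries. For miR-541 the brain libraries held 9.48, 16.3, 30.04 and 31.4 RPM and the adrenal libraries 12.8, 14.02, 23.4 and 39.6, against a highest value of 9.41 RPM in the other organs. It had 0 reads in all 4 testes libraries, which allow 5.6, 44.6, 30.9 and 71.7 RPM, so it cannot be ranked against testes at the 3 later stages. The miRNA miR-134, known for limiting dendritic spine size in neurons, held 21.7 to 66.4 RPM in brain and 8.36 to 31.9 RPM in adrenal. Finally miR-412 stood at 4.31 to 32.6 RPM in brain and 22.3 to 94.1 RPM in adrenal, and at no more than 12.1 RPM elsewhere, under the same limit of the testes libraries. Its difference between brain and adrenal, -1.53, was -2.29 and called without the adolescence brain (adjusted p = 0.0016). It was also called without the juvenile adrenal.

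The exception was miR-493, which lies at the start of the same cluster. It had 3, 0, 1 and 0 reads in brain and 36, 29, 32 and 43 reads in adrenal, which is 0 to 2.59 RPM against 33.9 to 57.5 RPM. The ranges did not overlap, and 0 reads in the adolescence brain allow up to 8.14 RPM. Brain minus adrenal was -4.25 ± 0.79 (log2, adjusted p = 6.74e-05), and brain was also lower than the other 8 organs, at -2.40 ± 0.59. In adrenal its difference from the other organs was 1.85 ± 0.59 and missed the limit (adjusted p = 0.0151).

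Among the names outside the cluster list, miR-1343-3p measured 587, 8262, 3735 and 1913 RPM in brain and 828, 582, 2481 and 1581 RPM in adrenal. With a library of 0 reads set at its limit of 3 reads, a choice made after the data were seen, both organs were above the other 8 at each stage, which only miR-433 of the other tested miRNAs also showed (2 of 126, 1.59%). Without the adolescence brain its difference between brain and adrenal was 0.48 instead of 1.67, and the excess of brain over the other 8 organs was 3.17 instead of 4.36. The same step took the brain excess of miR-433 from 6.33 to 5.16, of miR-3957 from 4.51 to 3.33, of miR-409b from 3.17 to 2.38 and of miR-412 from 2.78 to 2.04, and all of these were still called. The name miR-3957 held 184 to 2855 RPM in brain and 412 to 1157 RPM in adrenal, with at most 300 RPM elsewhere. For miR-95 the ranges were 33.6 to 73.7 and 46.3 to 108 RPM, and the aged heart was higher than either at 183 RPM. The miRNA miR-135a, which is brain-rich in many mammals, stood at 1039, 13.6, 358 and 904 RPM in brain and at 651, 571, 92.0 and 186 RPM in adrenal. Kidney was above both organs here, with a mean of 1968 RPM and a highest value of 5326, so the difference from the mean of 8 organs (3.92 in brain and 3.41 in adrenal) does not place them above every organ.

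Kidney was the highest of the other organs for 7 of the 12 shared miRNAs, heart and testes for 2 each and antler for 1. With the same limit for 0 reads, both organs were above all 8 others at 4 stages for 2 of the 12, at 3 stages for 4, at 2 stages for 1, at 1 stage for 3 and at none for miR-135a and miR-412. None of the 12 was called between brain and adrenal, where 22.2% of all tested miRNAs were, although 5 of the 12 had an unadjusted p below 0.05. By mean difference 8 stood higher in brain and 4 in adrenal with limma, edgeR and DESeq2, but 3 and 9 on total miRNA reads. With other tools and scalings some calls appeared, for miR-409a, miR-409b and miR-412 toward adrenal on total miRNA reads, for miR-409a toward adrenal with edgeR, and for miR-134, miR-433 and miR-1343-3p toward brain with DESeq2. So these data do not show that the 12 were equal in the 2 organs. Leaving out single adrenal libraries ended the adrenal call of miR-95 (replicates 2, 3 or 4), miR-135a (1 or 2), miR-431 (2 or 4) and miR-134 (4), while the other 8 kept both calls whichever brain or adrenal library was left out.

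Brain and adrenal differed in 28 miRNAs, which is 22.2% of those tested, 7 higher in brain (5.56%) and 21 higher in adrenal (16.7%). The 21 names stand for 18 sets of reads, since miR-199a-3p and miR-3604, miR-152 and miR-2957, and miR-3600 and miR-22-3p carry nearly the same reads. In 26 of the 28 the difference had the same sign in all 4 stage pairs, the exceptions being miR-135b and miR-214, both through the adolescence pair. The median difference over all tested miRNAs was -0.27, and it moved to -0.82 on total miRNA reads and to 0.43 with DESeq2. The split moved with it, from 25.0% of the calls higher in brain to 17.1% on total miRNA reads (6 and 29), 36.1% with edgeR (13 and 23) and 59.1% with DESeq2 (26 and 18). Under all 3 alternatives together 6 of the 7 and 17 of the 21 were called in the same direction. A fit of the 8 brain and adrenal libraries alone, which has far fewer degrees of freedom, called 11, all among the 28. They were miR-124a, miR-133b, miR-486, miR-490 and miR-2366 in brain and miR-199a-3p, miR-199a-5p, miR-199c, miR-493, miR-3120 and miR-3604 in adrenal.

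**Figure D2:**
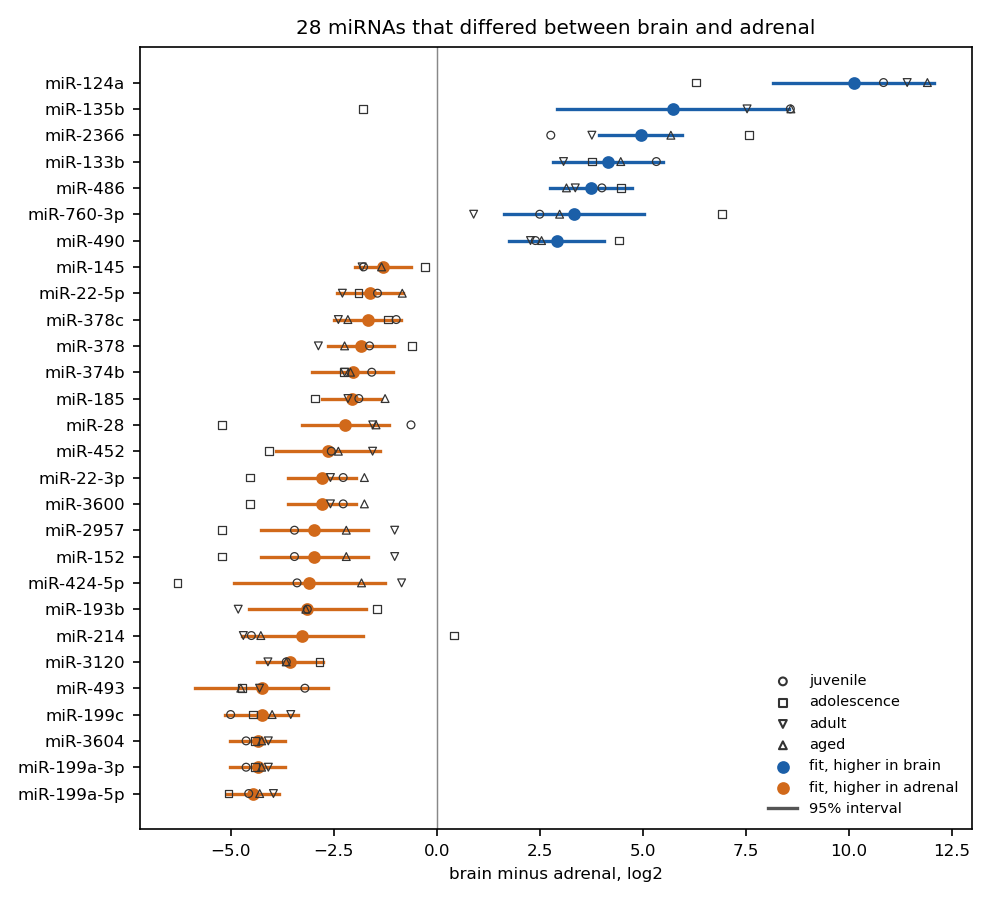
The 28 miRNAs called between brain and adrenal, with the log2 difference (brain minus adrenal) on the x axis. Filled points are the fitted differences with 95% intervals (blue higher in brain, orange higher in adrenal), and open symbols are the differences of the 4 stage pairs. The adolescence squares of miR-135b and miR-214 lie on the other side of 0 from their fits.

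The miRNAs higher in brain were of 2 kinds. For 5 of the 7 miRNAs brain was above the other 8 organs, of which miR-760-3p and miR-2366 met the minimum only through brain and are no support, which leaves miR-124a, miR-135b and miR-490, and for miR-133b and miR-486 adrenal was below them. The largest difference was that of miR-124a, which promotes and marks neuronal differentiation. Brain held 57640, 2446, 31967 and 37110 RPM from juvenile to aged and adrenal 55.9, 72.5, 8.36 and 12.8 RPM. The lowest brain library was far above every adrenal library. The fitted difference was 10.12 ± 0.96 (adjusted p = 2.32e-10), and 10.72 without the adolescence brain. In adrenal miR-124a was not called above the other 8 organs at 2.13 ± 0.72 (adjusted p = 0.0192), where the aged testes reached 358 RPM.

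The other miRNAs of this kind were less abundant. For miR-135b brain held 3349, 2.71, 366 and 722 RPM and adrenal 14.4, 25.7, 0 and 1.07 RPM. The adolescence brain, with 1 read, was below 2 adrenal libraries, so the ranges overlapped, and the difference was 5.73 ± 1.38 (adjusted p = 0.00125). Without the adolescence brain the difference was 7.85 (adjusted p = 2.89e-06). It was not called without the juvenile brain or without the aged adrenal. For miR-2366 brain held 11.2, 106, 51.3 and 58.6 RPM and adrenal 1 read, 0, 1 read and 0. Since it and miR-760-3p could be tested only because brain was high, their differences of 4.95 and 3.32 are given as a description. For miR-760-3p brain held 19.0, 307, 70.1 and 69.4 RPM and adrenal 4.79, 4.67, 31.8 and 11.8, and its difference was 2.18 without the adolescence brain. For miR-490 brain held 164, 882, 1601 and 1307 RPM and adrenal 55.9, 97.0, 284 and 338, a difference of 2.90 ± 0.57 (adjusted p = 1.41e-04), and the aged heart was higher than any of them at 1845 RPM.

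The 2 miRNAs that were low in adrenal are known from blood and muscle. In adrenal miR-486, which lies in the ankyrin gene ANK1 and is abundant in red cells and muscle, held 993, 608, 1008 and 1019 RPM, and in brain 8713, 5711, 12027 and 5976. The ranges did not overlap, with a difference of 3.75 ± 0.49 (adjusted p = 1.78e-07). Against the other 8 organs adrenal was lower, at -2.69 ± 0.37, while brain was not called at 1.06 ± 0.37. For miR-133b, a muscle miRNA also described in midbrain dopamine neurons, adrenal had 1, 3, 4 and 6 reads and brain 82, 10, 64 and 109 reads. The difference was 4.16 ± 0.65 (adjusted p = 4.55e-06), with adrenal at -4.0 ± 0.49 from the other organs and brain at 0.16 ± 0.49. The other tested blood-cell miRNAs, miR-142-5p and miR-150, were not called between the organs with limma at -1.11 and 2.20, although DESeq2 called miR-150 higher in brain (3.39, adjusted p = 1.40e-04), and the erythroid marker miR-451 had 1 read in the 8 libraries. Of the 5 tested names of striated muscle limma called only miR-133b, where 22.2% of all tested were called, and DESeq2 also called miR-133a higher in brain (2.24, adjusted p = 7.50e-04), while miR-206, miR-208a, miR-208b and miR-499 had no reads in these 8 libraries.

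Among the 21 higher in adrenal, brain was below the other 8 organs for 17 and adrenal was above them for 5, both being so for the paired names miR-3600 and miR-22-3p and neither for miR-424-5p. The stromal miRNAs led, and all 5 tested names of that list were higher in adrenal, where 16.7% of all tested were. Of the 5, miR-199a-3p and miR-3604 carry nearly the same reads, and miR-199a and miR-214 share a host transcript. The 5 names are therefore not 5 independent members. The median difference of the list was -4.35, against -0.27 over all tested. For miR-199a-5p brain held 467, 166, 631 and 456 RPM and adrenal 20365, 13133, 8537 and 13645 RPM. For miR-199a-3p brain held 961, 483, 2022 and 1299 RPM and adrenal 43734, 24658, 29736 and 37528 RPM. The ranges were far apart, and the differences were -4.47 ± 0.31 and -4.35 ± 0.33 (adjusted p = 2.69e-13 and 9.63e-13), or 22.2-fold and 20.4-fold higher in adrenal. Adrenal itself was near the other organs, at -0.56 and -0.47, whereas brain was lower by the full amount, at -5.03 and -4.82. The related name miR-199c differed by -4.26 ± 0.43.

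The same pattern held for miR-214, which shares its host transcript DNM3OS with miR-199a, and for miR-3120, which is read from the opposite strand of the miR-214 locus. For miR-3120 brain held 8.62 to 24.9 RPM and adrenal 219 to 496 RPM, with a difference of -3.57 ± 0.39 (adjusted p = 3.93e-09). For miR-214 brain held 20.7, 258, 153 and 101 RPM and adrenal 897, 460, 3463 and 2982 RPM. The unscaled ranges did not overlap, and after TMM scaling the adolescence pair alone favoured brain, at 0.41. The fitted difference was -3.27 ± 0.72 (adjusted p = 5.55e-04). Of the 2 vessel-wall miRNAs tested 1 was called, where 22.2% of all tested were. The smooth muscle miRNA miR-145 held 4123 to 25926 RPM in brain and 18700 to 78643 RPM in adrenal, overlapping, with a difference of -1.31 ± 0.33 (adjusted p = 0.002), which was lost without the juvenile brain, without the adult adrenal, without the stage block (adjusted p = 0.0258) and with DESeq2. Its partner miR-143 had 0 reads in brain and 2 to 5 in adrenal, and the endothelial miR-126-3p was not called at -1.53. No epithelial marker (6 names) had a read in any of the 8 libraries.

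Further down the list, miR-193b held 0 to 5.43 RPM in brain and 27.1 to 58.8 RPM in adrenal, at -3.15 ± 0.70. For miR-22-3p brain held 1540, 231, 3081 and 3897 RPM and adrenal 13670, 12804, 15932 and 19947 RPM, at -2.79 ± 0.41 (adjusted p = 1.21e-06). This was one of the few cases with a called rise over the other organs in adrenal (1.13) and a called deficit in brain (-1.67). The reads named miR-152 held 0 to 3.76 RPM in brain and 8.36 to 86.2 RPM in adrenal, at -2.98 ± 0.64. With its second name miR-2957 and miR-452 it makes up the 3 called names that lacked 10 reads in 4 of the 8 libraries. These 3 met the minimum through the other organs and were not tested in the fit of the 8 libraries alone. For miR-424-5p, an X-linked miRNA of the miR-16 family, brain held 10.3, 0, 1.25 and 4.34 RPM and adrenal 215, 103, 3.34 and 27.8 RPM. The ranges overlapped, and its difference of -3.10 ± 0.90 (adjusted p = 0.00755) was lost when any of 5 libraries was left out (the adolescence or adult brain, or the juvenile, adolescence or aged adrenal), and also without the stage block (adjusted p = 0.0238). The last 7 names of the 21, which fall outside the naming rule, were miR-452, miR-28, miR-185, miR-374b, miR-378, miR-378c and miR-22-5p, at -2.65 to -1.62. Without the adolescence brain miR-28 went from -2.22 to -1.25, miR-193b to -3.87, miR-214 to -4.31, the reads of miR-152 to -2.36 and those of miR-22-3p to -2.20, all still called. Of the 7, miR-185, miR-374b and miR-22-5p were the ones for which adrenal was above the other organs (1.84, 2.02 and 1.23) and brain near them (-0.23, -0.03 and -0.39).

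**Figure D3:**
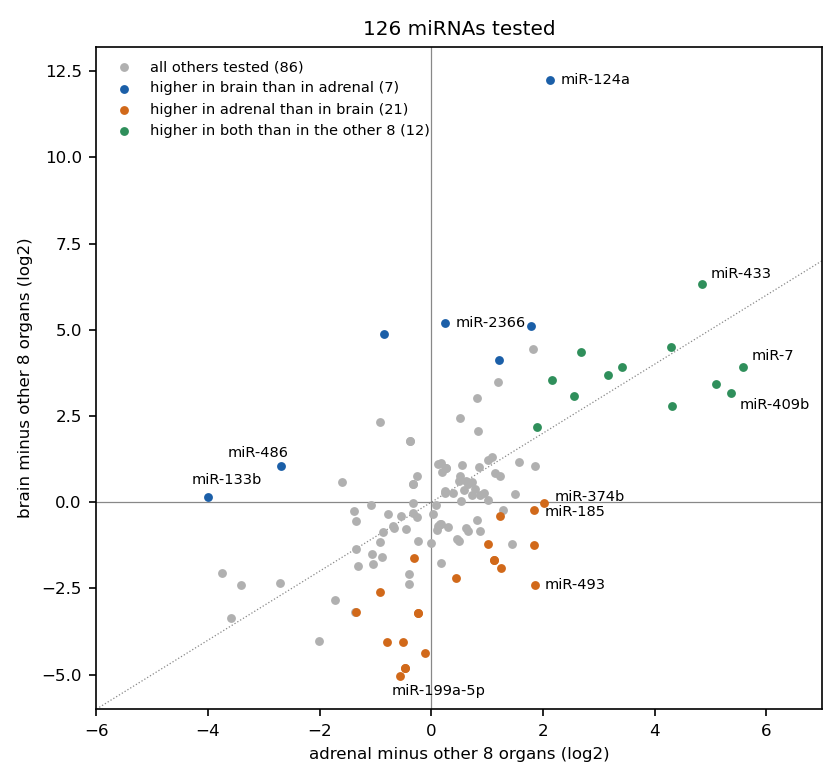
Difference of each of the 126 tested miRNAs from the mean of the other 8 organs, for adrenal on the x axis and brain on the y axis, both log2. Green points are the 12 called higher in both, blue and orange points those called between brain and adrenal, and the dotted line marks equal differences. The 2 axes share the 32 libraries of the other organs. Orange points lie mostly near 0 on the x axis and below 0 on the y axis, and miR-124a stands alone at the top at 12.25.

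Levels also varied between the stages of each organ. In brain miR-124a stood at 2446 RPM in the adolescence library and at 31967 RPM or more in the other 3, and the same library was lowest for miR-135a and miR-135b and highest for miR-433, miR-1343-3p and miR-3957. In adrenal miR-7 was highest in the juvenile and adolescence libraries, whereas miR-409b and miR-433 were highest in the adult and aged ones. The most abundant let-7 member, let-7b, took 8.56% of the reads in the juvenile brain and 29.7% to 41.6% in the other brain libraries. In adrenal it took 4.39% and 2.89% in the juvenile and adolescence libraries and 19.7% and 21.1% in the adult and aged. RPM are shares of a library, and miR-7 took 47.4% and 59.1% of the reads in the juvenile and adolescence adrenal, against 9.31% and 9.9% later. A large share of miR-7 lowers the RPM of all other miRNAs in its library. How far it sets the adrenal order of miR-409b, miR-433 and let-7b was not tested. With 1 library per organ and stage the changes between stages have no replicate and were not tested. Over all tested miRNAs the median SD between the 4 stages was 1.17 in brain, the highest of the 10 organs, and 0.765 in adrenal (log2).

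**Figure D4:**
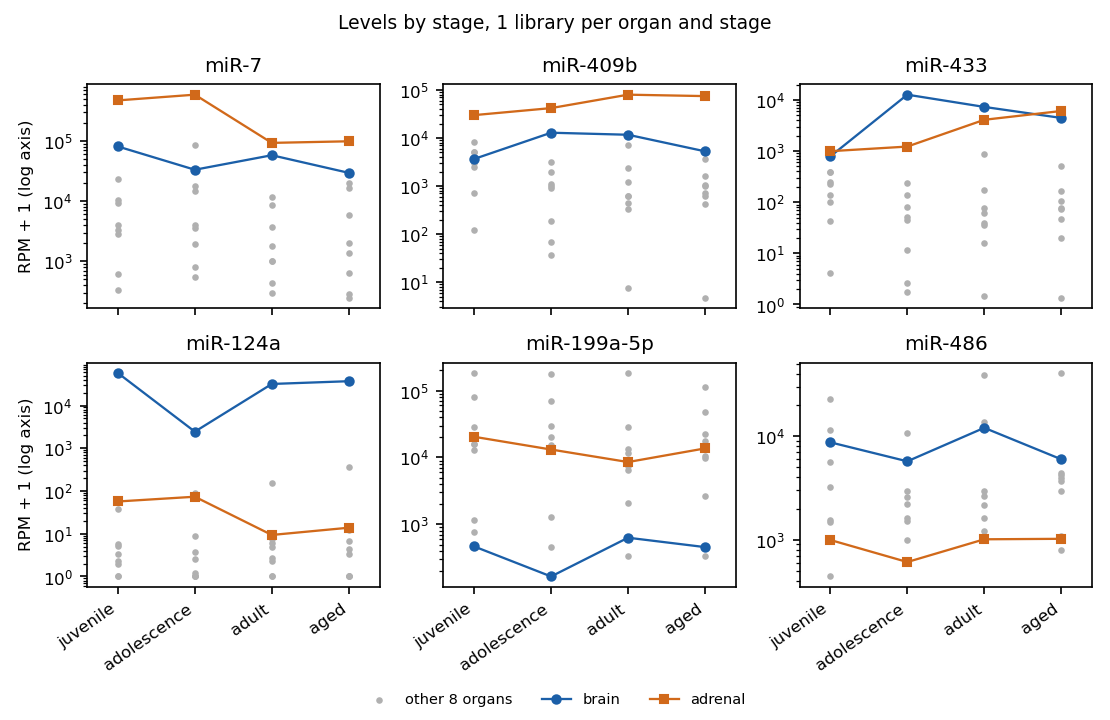
Levels of 6 miRNAs at the 4 stages, with RPM + 1 on a log axis and 1 library per point. Blue circles are brain, orange squares adrenal and grey points the other 8 organs. In adrenal miR-7 was at 474297 and 590536 RPM in the first 2 stages and at 93085 and 98970 RPM in the later ones, and miR-124a was lowest at 2446 RPM in the adolescence brain.

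Over the whole profile the likeness was one-sided. Each of the 4 brain libraries had adrenal as its nearest other organ, with a mean Pearson correlation of 0.781 to 0.861 across the 126 miRNAs. Each adrenal library was nearer to 4 or more organs than to brain, which ranked from 5 to 7 among the 9 other organs, and the nearest was kidney for 2 of them, spleen for 1 and lung for 1. The correlation with brain was 0.806 to 0.844, against 0.868 to 0.903 with those nearest organs. These values describe likeness across miRNAs, which are not independent, and they carry no test.

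Of the 17 neuronal names 8 had reads in these libraries and 3 could be tested. The other 9 had no reads in any library of the series, among them miR-9-5p, miR-9-3p, miR-132, miR-137, miR-138 and miR-218. Why these names are absent was not tested. All 3 tested names were higher in brain than in the other organs (18.3% of all tested were), while 1 of them, miR-135a, was higher in adrenal (14.3%). Directly between the organs miR-124a and miR-135b of the 3 were higher in brain, against 5.56% of all tested. The neuronal miR-128 had 5, 4, 5 and 13 reads in brain and none in adrenal, where 0 reads allow 3.21 to 5.02 RPM. The activity-linked miR-212 had 4, 0, 13 and 13 reads in brain and 1, 1, 0 and 1 in adrenal. The oligodendrocyte miR-338 had 14, 0, 18 and 23 reads in brain and 1, 1, 0 and 3 in adrenal, and miR-219-3p had 0, 3, 3 and 3 in brain and 0 in adrenal. The neuroendocrine and islet miRNA miR-375 had 2, 2, 1 and 10 reads in adrenal and 0 in each brain library. None of these 5 had enough reads to test.

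None of the tested members of the let-7 (7), miR-30 (4), miR-29 (2) and Hox-cluster (2) lists was called between brain and adrenal with limma, against 22.2% of all tested miRNAs, and the medians of the lists were 0.98, -0.94, -0.45 and -1.76. Other fits called some of them. With edgeR let-7b and its second name miR-3596 were higher in brain at 2.59 (adjusted p = 0.00432). With DESeq2 both were at 3.18 (adjusted p = 2.88e-07), and let-7a-5p and let-7c were also called higher in brain, at 1.62 and 1.68. On total miRNA reads miR-196a was called higher in adrenal, at -2.50 (adjusted p = 0.00536). The let-7 reads were higher in brain than in the other 8 organs for let-7b and miR-3596, at 1.77. Both Hox-cluster names tested, miR-196a and miR-196b, were lower in brain than in the other organs (-2.09 and -3.20) and not called in adrenal (-0.40 and -1.37). The liver and kidney marker miR-192 stood at 9093, 73.3, 1695 and 1685 RPM in brain and 6280, 4721, 1194 and 1297 RPM in adrenal, with no call between them at -0.52. Brain was lower than the other 8 organs in 29 miRNAs (23% of those tested) and adrenal in 9 (7.14%). Both were lower in 7 (5.56%), among them miR-1, miR-133a and miR-133c, and 4 were lower in both when skeletal muscle was left out of the other organs, a choice made after the data were seen.

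The list of miRNAs that the study named for brain alone or for brain and adrenal held 10 names, and none reached the minimum for a test. Of the 8 with reads in brain or adrenal, miR-212, miR-383, miR-153, miR-329a and miR-496 had reads in both, with totals in brain and adrenal of 30 and 3, 17 and 3, 9 and 1, 7 and 1, and 2 and 1. They had 0 reads in the other 32 libraries, which allow 0.387 to 71.7 RPM depending on depth. The list was drawn up by the study from these samples, so its pattern is not independent evidence. In all 25 known names had reads in brain or adrenal and in no other organ, with a median of 2 reads, and 3 of them had 10 reads or more (miR-153, miR-212 and miR-383).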

How the data were processed

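The tables that the authors deposited list, for each library, every miRNA with a read and its RPM value; the column is headed tpm, but it is reads per 1000000 miRNA reads with no division by length. Per the methods, adapters and short tags were removed, other RNA classes were filtered out, known miRNAs were matched to miRBase and further ones predicted with miRDeep; the labels name Bowtie, CASAVA and bcl2fastq 1.8.4. Within a name, reads of near-identical miRNAs cannot be separated. All 7982 values were whole multiples of 1 read within 0.01 read, so reads were recovered.

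Differences were fitted with limma 3.58.1 (R 4.3.3) on log2(RPM + 1), pseudocount 1, after TMM scaling (edgeR 4.0.16), with organ and stage over 40 libraries, and the code was tested on simulated data. Stage served as the replicate block, since brain and adrenal of 1 stage were taken from the same 3 deer per the methods. The deviations of same-stage brain and adrenal libraries correlated at 0.698, -0.588, -0.00355 and 0.222. P-values measure the spread between libraries of different stages. In antler the name miR-148c was read as miR-2957.

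Named were the 12 largest called differences in each direction with 1 sign in all 4 stage pairs, every miRNA higher in both organs and list members with reads in brain or adrenal; others were named after their values were seen. The members, lists and comparisons were chosen with earlier results of these data known. Limits for 0 reads are 3 reads of the library and cover counting error only. Alternatives were total miRNA reads, edgeR, DESeq2 1.42.0, pseudocount 10, other read minimums, no replicate block, merged names, 8 libraries only and leaving out libraries or stages; leaving testes or skeletal muscle out of the other organs was added after seeing the data.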

Additional observations from a re-analysis of the deposited data

Results flagged for a closer look

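Among the 40 named miRNAs, each organ's 4 values were examined for 1 library far from the others, in 80 groups, of which chance alone flags about 1 in 20, and 4 stood out. The adult adrenal was high in miR-145 at 78600 RPM, where the other 3 adrenal libraries held 18700 to 30000. The juvenile adrenal was low in miR-3957 at 412 RPM, against 793 to 1160. The adolescence adrenal was low in miR-486 at 608 RPM, against 993 to 1020, and all 4 adrenal values stayed below the lowest brain value. In brain the juvenile library had 1 read of miR-452, or 0.862 RPM, and the others had none. These 4 values were not examined further.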

How the results depend on the processing

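The count of brain against adrenal calls, 28, was 44 with DESeq2 and 11 with the 8 libraries alone and a replicate block. Higher in brain were 13 with edgeR, 26 with DESeq2 and 15 with no minimum of reads, against 7, and higher in adrenal were 6 in the 8 libraries alone, against 21. Adrenal above the other 8 organs gave 41 on total miRNA reads and 30 with edgeR, against 18, and brain above them 41 with no minimum, against 23. The shared set was 19 on total miRNA reads, against 12. With no replicate block the counts were 25, 7 and 18 between the organs and 12 shared, and of the 28 calls miR-424-5p, miR-22-5p and miR-145 were lost. The block changed no other call among the 28 or the 12. For the counts that moved the cause was not tested. The 8 libraries alone and the fits without a stage rest on fewer libraries than the main fit.

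Leaving out 1 library or stage gave 15 to 31 calls between brain and adrenal (4 to 9 higher in brain, 11 to 24 higher in adrenal), 19 to 26 for brain and 8 to 22 for adrenal above the other organs, and 7 to 13 shared. The lowest values came without stage 3 (17 calls, 5 higher in brain, 12 higher in adrenal, 8 for adrenal, 7 shared) and stage 4 (15, 4, 11, 10 and 8). Without stage 1 and without stage 2, fits that leave out as many libraries, there were 26 and 25 calls. Without the adolescence adrenal 12 were above the other organs and 9 shared.

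No called difference changed sign. Among the uncalled shared miRNAs the sign between brain and adrenal turned on total miRNA reads for miR-3957 (-0.40), miR-95 (-0.33), miR-135a (-0.0995), miR-431 (-0.0915) and miR-541 (-0.0414). It also turned for 4 of them when 1 library or stage was left out, over which miR-3957 ranged from -0.96 (without brain replicate 2) to 1.23, miR-95 from -0.0751 (without brain replicate 2) to 0.69, miR-135a from -0.40 (without brain replicate 1) to 2.05 and miR-431 from -0.20 (without adrenal replicate 1) to 1.01. Of 627 values for the 28 called miRNAs, 71 no longer passed the limits under an alternative, and of 528 for the shared set 24 did not. Counting error limits names under about 10 reads.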

Other observations

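Predicted miRNAs, which carry numbers and no known name, were left out of the comparisons above. Of the 112 listed in brain or adrenal, 18 had at least 10 reads in at least 4 of the 8 libraries. Antler is left out here because its numbers name other miRNAs, which leaves 28 libraries of other organs. In 3 of the 18 all brain libraries were above all adrenal libraries, in 2 the reverse held, and in 13 the ranges overlapped. The clearest toward brain was novel_146, at 50.0, 128, 113 and 66.1 RPM from juvenile to aged in brain and 19.2, 2.34, 18.4 and 8.55 RPM in adrenal, with a median of 5.87 RPM elsewhere and 185 RPM in the juvenile lung. Next were novel_49, at 12.1 to 51.0 RPM in brain and 3.19 to 10.03 RPM in adrenal, and novel_151, at 10.8 to 41.4 RPM and 0 to 3.51 RPM. Toward adrenal, novel_22 held 109, 278, 202 and 585 RPM in adrenal and 35.3 to 72.6 RPM in brain. Its highest value elsewhere was 103 RPM, in the adult kidney, below each adrenal library. The other was novel_46, at 20.1 to 140 RPM in adrenal and 0 to 12.1 RPM in brain. These names were chosen after their values were seen, and no test was run on them.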
